A study of Mus musculus with 4 samples.

Results

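The 10 genes described here belong to the MHC class I presentation pathway and were followed by symbol in 4 single-cell RNA libraries: the heavy chain genes H2-K1, H2-D1 and H2-Q7, the light chain gene B2m, the peptide transporter and loading genes Tap1, Tap2 and Tapbp, the immunoproteasome genes Psmb8 and Psmb9, and the regulator Nlrc5. They are 10 of 31017 gene symbols in the bone marrow files and 10 of 32245 in the tumor files, and all 10 were found in every library.

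MHC class I molecules show peptides from inside the cell to CD8 T cells, and their level on the surface also sets how NK cells respond to a cell. Proteasomes cut proteins into peptides, and the immunoproteasome subunits encoded by Psmb8 and Psmb9 replace constitutive subunits in leukocytes and in cells exposed to interferon. The transporter made of the Tap1 and Tap2 products carries peptides into the endoplasmic reticulum, where tapasin (Tapbp) helps load them onto a heavy chain bound to beta-2 microglobulin (B2m). Nlrc5 is a transcriptional activator of these genes, and both types of interferon are known to induce many of them.

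By GENCODE coordinates on GRCm38, 8 of the 10 genes lie on chromosome 17 and form part of the mouse MHC region. H2-K1 lies at chr17:33996017-34000347 on the minus strand, H2-D1 at chr17:35262730-35267499 on the plus strand and H2-Q7 at chr17:35439155-35443773 on the plus strand. Psmb9 (chr17:34181987-34187764, minus), Tap1 (chr17:34187553-34197225, plus), Psmb8 (chr17:34197721-34201454, plus) and Tap2 (chr17:34203527-34216321, plus) are direct neighbors, and Tapbp is at chr17:33915899-33929292 on the plus strand. B2m is at chr2:122147686-122153083 and Nlrc5 at chr8:94434356-94527272, both on the plus strand.

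The promoters of 3 genes are printed because they belong to the classical heavy chain, the nonclassical heavy chain with the widest KO to WT difference below, and the light chain that pairs with both. Each run is the 250 bases before the RefSeq start (GRCm38.p6), 5′ to 3′ on the strand of the gene, and capitals mark matches to a searched motif.
H2-K1, chr17:34000348-34000597, minus strand: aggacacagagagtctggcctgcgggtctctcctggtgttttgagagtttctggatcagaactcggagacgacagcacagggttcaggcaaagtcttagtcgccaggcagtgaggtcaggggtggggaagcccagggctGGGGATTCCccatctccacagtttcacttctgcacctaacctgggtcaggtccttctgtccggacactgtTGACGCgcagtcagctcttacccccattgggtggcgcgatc
H2-Q7, chr17:35438905-35439154, plus strand: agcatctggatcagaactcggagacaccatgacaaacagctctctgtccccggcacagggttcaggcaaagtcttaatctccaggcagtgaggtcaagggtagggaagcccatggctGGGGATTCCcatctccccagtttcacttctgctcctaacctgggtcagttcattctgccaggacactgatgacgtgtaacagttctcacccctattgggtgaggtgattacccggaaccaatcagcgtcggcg
B2m, chr2:122147437-122147686, plus strand: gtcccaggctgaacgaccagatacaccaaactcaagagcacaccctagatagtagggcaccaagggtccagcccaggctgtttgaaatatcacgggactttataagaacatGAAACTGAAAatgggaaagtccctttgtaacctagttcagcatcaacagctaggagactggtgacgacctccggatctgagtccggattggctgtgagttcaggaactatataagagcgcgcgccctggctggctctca

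A search on both strands covered 4 motifs. Among them were an interferon-stimulated response element (ISRE, GAAA, then 2 bases of any kind, then GAAA) and a gamma-activated site (GAS, TTCNNNGAA). The others were a kappaB-type sequence (GGGNNTTCC) and the hexamer TGACGC. The usual CRE hexamer, TGACGT, was not searched, and the H2-Q7 run above holds it in lower case. Variants of the ISRE pattern were not searched either. The H2-K1 and H2-Q7 runs both hold the similar agtttcacttct in lower case, which the pattern does not match. RefSeq promoter entries matched 8 of the 10 genes, and Tap2 and Nlrc5 had none. The kappaB-type sequence was found in H2-K1, H2-D1 and H2-Q7, and in 4.98% of 32851 promoter windows of the same length. TGACGC was found in H2-K1 and H2-D1 (6.12% of windows), the ISRE pattern in B2m (2.98%) and the GAS pattern in Psmb8 (7.02%). No searched motif was found in the Tap1, Tapbp or Psmb9 windows. A match is a match of letters only and was not tested as a bound site.

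The KO mice carried S100a8fl/fl with Vav-Cre+/-, which deletes S100a8 in the hematopoietic system, and the WT mice carried the same S100a8fl/fl alleles with Vav-Cre-/-. The sort took CD45+ cells, either out of the marrow of mice without tumors or out of LLC tumors (Lewis lung carcinoma, a mouse cell line). A group was 1 droplet library made from 3 pooled mice, so every difference below is between 2 libraries and has no replicate, test or p-value. Ages of the mice and where the tumors grew are not given in the sources used here.

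S100a8, the deleted gene, had 7 UMIs in the KO bone marrow library against 2301866 in WT, and 85 against 14244 in the tumor libraries. The libraries held 8126 to 12027 barcodes, and 7446 to 10503 cells per library were used after filters and removal of doublets. Ptprc, which encodes CD45, had a UMI in 79.0% to 91.2% of these cells. The 4 libraries shared 21 to 46 cell barcodes pair by pair. A tumor cluster of 87 KO and 60 WT cells was fibroblast-like or stroma-like (led by Col3a1, Krt8 and Rhox5) in spite of the CD45 sort. Krt8 is also a tumor epithelial marker in the lists used here, and whether carcinoma cells were in the cluster was not tested.

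Cells were clustered in each tissue and classes were named from marker genes, so they are called "like" a cell type. In bone marrow the classes with at least 100 cells in each library were mature neutrophil-like (5475 KO, 2446 WT cells), neutrophil precursor-like (1376 and 1236), B lineage-like (847 and 1942), monocyte-like or macrophage-like (719 and 581), stem or progenitor-like (314 and 228), NK-like (218 and 131), erythroid-like (199 and 159), plasmacytoid dendritic-like (161 and 185) and T-like (134 and 214). In the tumor they were monocyte-like or macrophage-like (2102 and 1847), mature neutrophil-like (1859 and 155), T-like (1399 and 3611), conventional dendritic-like (285 and 1339) and NK-like (223 and 1647). Clusters that stayed unnamed held 41.9% of KO and 15.2% of WT tumor cells, and 2.87% and 1.65% of bone marrow cells. The names were rebuilt here from markers, and the authors may have named cells otherwise.

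Levels are UMIs per 1000000 UMIs (CPM) of a class in 1 library, with the class total taken without S100a8, S100a9, mitochondrial, ribosomal protein and hemoglobin genes. They are compared between classes or genotypes for 1 gene and not between genes. The log2 ratio of KO over WT is centred, which means that the median ratio of all measured genes of the class is set to 0, and a gene was measured with at least 100 UMIs over both libraries. A gene is counted as higher or lower where its centred log2 ratio is beyond 0.32 or -0.32, called past the fold below, which is a rule of size and not a test. Intervals are exact 95% intervals of counting error only.

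In both bone marrow libraries the 3 heavy chain genes were highest in NK-like cells. H2-K1, a classical heavy chain, was at 4031 CPM in KO and 3682 in WT NK-like cells, and at 522 and 425 CPM in erythroid-like cells. H2-D1, the other classical heavy chain, was at 1935 and 1984 CPM in NK-like cells and at 494 and 420 CPM in erythroid-like cells. Mature neutrophil-like cells were above monocyte-like or macrophage-like and T-like cells for H2-D1 in both libraries, while they were near the low end for H2-K1.

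H2-Q7, a nonclassical heavy chain, had the widest spread of the heavy chains over bone marrow classes. It was at 1026 CPM in KO and 992 in WT NK-like cells, at 641 and 603 CPM in T-like cells, and at 19.8 and 49.0 CPM in mature neutrophil-like cells. B2m varied less, from 1278 CPM in KO neutrophil precursor-like cells to 3758 CPM in KO NK-like cells, and from 1434 to 3723 CPM between erythroid-like and NK-like cells of the WT library.

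The regulator Nlrc5 spanned 30.5-fold over KO classes and 34.5-fold over WT classes. It was at 193 and 175 CPM (KO and WT) in NK-like cells, at 121 and 90.5 CPM in T-like cells, and at 6.31 and 5.07 CPM in neutrophil precursor-like cells. Tapbp was highest in plasmacytoid dendritic-like cells in both libraries, at 748 and 792 CPM, against 403 in KO T-like cells and 434 in WT monocyte-like or macrophage-like cells, the next classes. Psmb8 was lowest in erythroid-like cells, at 35.3 and 19.99 CPM, and highest in NK-like cells, at 508 and 404 CPM. Its erythroid-like levels rest on 67 and 31 UMIs, also under that minimum.

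For Tap1, Tap2 and Psmb9 the order of bone marrow classes was less sharp. Tap1 was between 78.7 and 263 CPM over all classes and libraries, and 5 of the neighboring pairs of KO classes and 9 of those of WT classes had overlapping counting intervals. The overlapping pairs numbered 5 and 7 for Tap2 and 5 and 7 for Psmb9. Psmb9 was highest in plasmacytoid dendritic-like cells, at 355 CPM in KO and 333 in WT.

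**Figure D1:**
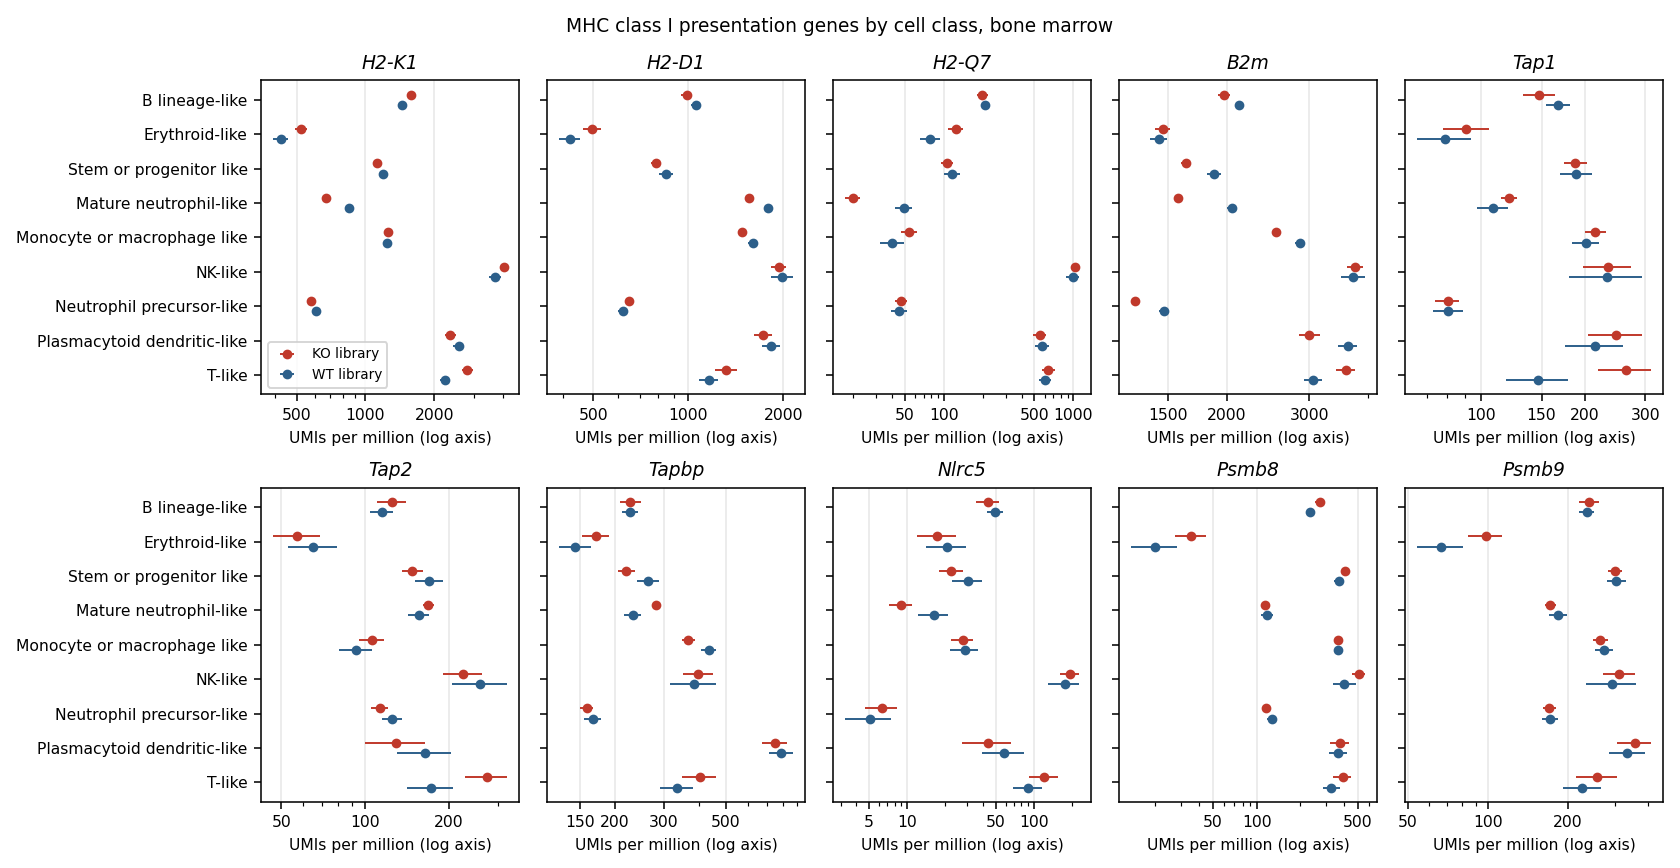
Levels of the 10 genes in bone marrow classes. Each panel is 1 gene, the x axis is CPM on a log scale, points are the KO (red) and WT (blue) library, and bars are exact 95% counting intervals. NK-like and T-like cells sit at the high end for H2-K1, H2-Q7 and Nlrc5, and KO and WT points of H2-Q7 are far apart in mature neutrophil-like cells (19.8 against 49.0).

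In the tumor, T-like and NK-like cells were again at the high end for H2-K1, H2-Q7 and B2m. H2-K1 was at 4874 CPM in KO and 5413 in WT T-like cells, and H2-Q7 at 1983 and 2208 CPM. The immunoproteasome genes were instead highest in conventional dendritic-like cells, with Psmb8 at 1443 and 1681 CPM and Psmb9 at 545 and 581 CPM (KO and WT). The order of classes differed between the tumor libraries for H2-D1, which was highest in mature neutrophil-like cells in WT (5325 CPM) and in NK-like cells in KO (3822 CPM).

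**Figure D2:**
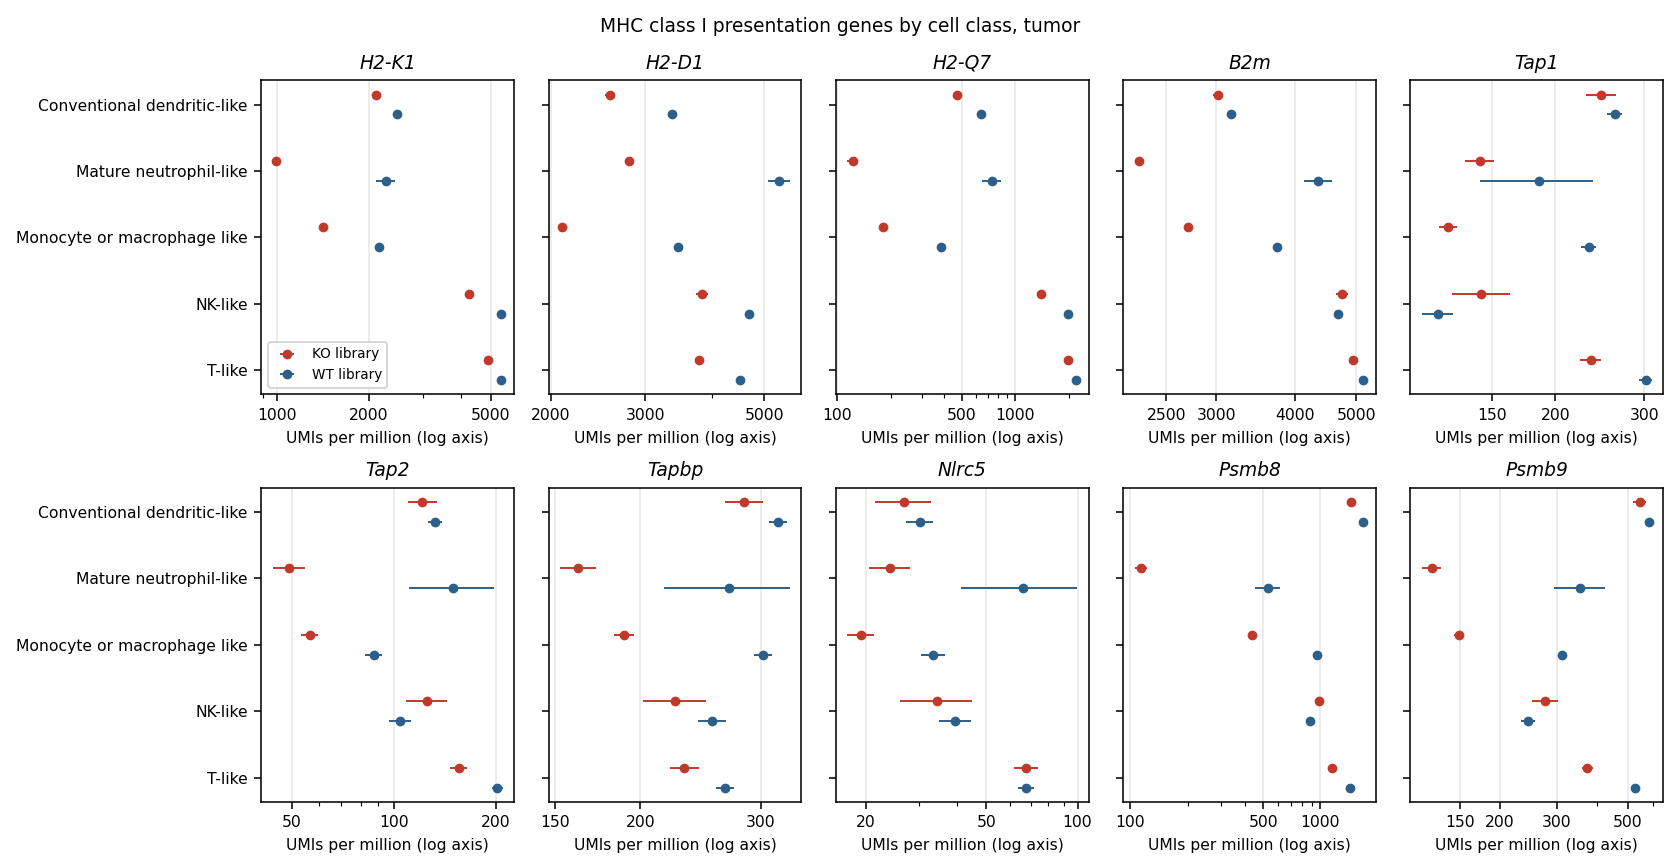
Levels of the 10 genes in tumor classes, drawn as for bone marrow (x axis in CPM, log scale, KO in red, WT in blue, exact 95% counting intervals). The KO point lies left of the WT point for all 10 genes in mature neutrophil-like and in monocyte-like or macrophage-like cells.

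Tumor mature neutrophil-like cells had the lowest median ratio of the 14 classes compared. All 10 genes had a lower level in the KO library, 9 of the 10 past the centred fold, and the median centred log2 ratio over the 10 was -1.23. Of all genes measured in the class, 30.7% were lower past the same fold and 31.6% higher. Large ratios were thus common in this comparison of 1859 KO with 155 WT cells. Of 6 measured MHC class II genes 5 were lower in KO past the fold and 0 higher. Their summed levels were 1086 CPM in KO and 1817 in WT, and the part of these transcripts in the ratios was not tested.

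H2-Q7 was at 122 CPM in KO and 736 in WT mature neutrophil-like cells of the tumor, 6.04-fold lower (interval 5.22 to 6.98), and 0.235% of measured genes of the class had a lower ratio. H2-K1 was at 995 and 2269 CPM, 2.28-fold lower (2.11 to 2.46). H2-D1 was at 2796 and 5325 CPM (1.90-fold) and B2m at 2261 and 4352 CPM (1.92-fold, 1.82 to 2.03). The light chain and the classical heavy chains thus differed by similar folds, and the nonclassical chain by more.

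Among the genes that make and move peptides, Psmb8, the LMP7 subunit of the immunoproteasome, was at 113 CPM in KO and 527 in WT, 4.65-fold lower (3.92 to 5.49). Psmb9, the LMP2 subunit, was at 122 and 356 CPM, 2.91-fold lower. The transporter subunits differed from each other, with Tap2 at 49.2 and 150 CPM (3.04-fold lower) and Tap1 at 142 and 186 CPM (1.31-fold, 0.996 to 1.69). Tap1 was the only one of the 10 not past the centred fold (centred log2 ratio -0.29). Tapbp was at 162 and 269 CPM, 1.66-fold lower. Nlrc5 was at 23.97 and 65.8 CPM, 2.75-fold lower (1.67 to 4.305).

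This class held cluster 4 (1411 KO and 137 WT cells), cluster 16 (412 and 10) and cluster 29 (36 and 8). The leading genes of cluster 29 are mixed, with Retnlg and S100a8 beside Cyp11a1, Gata2 and Ccr3, which basophils express. Without cluster 29, an alternative chosen after the data were seen, the median was -1.29 and all 10 genes were past the fold, Tap1 at -0.36. Within cluster 4 alone the median centred log2 ratio of the 10 genes was -1.25. The median depth was 3687 UMIs per KO cell and 2434 per WT cell. A related unnamed cluster, cluster 6 (1219 KO and 61 WT cells, led by Hcar2 and Ccl3), had the reverse order for Tap1, at 241 CPM in KO and 66.1 in WT, from 1228 and 9 UMIs. In that cluster H2-Q7 was at 116 and 375 CPM and H2-K1 at 908 and 1624 CPM. With cluster 6 added to the class, an alternative chosen after the data were seen, the median was -0.81.

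Tumor monocyte-like or macrophage-like cells had all 10 genes lower in KO past the centred fold, against 19.3% of all measured genes of the class lower and 20.4% higher. The median centred log2 ratio was -0.64. The all-gene median of this class was itself at a log2 ratio of -0.11, and without centring the median of the 10 was -0.76.

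Psmb8 was at 435 CPM in KO and 961 in WT monocyte-like or macrophage-like cells of the tumor, 2.21-fold lower (2.15 to 2.27). Psmb9 was at 149 and 313 CPM (2.10-fold) and H2-Q7 at 180 and 380 CPM (2.11-fold, 2.02 to 2.20). Of the genes measured in the class, 2.41% had a lower ratio than Psmb8 and 2.81% a lower ratio than H2-Q7. The immunoproteasome genes and H2-Q7 were thus at the lower end of the distribution.

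The other 7 genes had less extreme ratios, though Tap1 was near that end too. Of the measured genes, 4.01% had a lower ratio than Tap1 and 16.8% a lower ratio than B2m. Tap1 was at 123 and 233 CPM (1.90-fold lower), Nlrc5 at 19.2 and 33.3 CPM (1.73-fold), H2-D1 at 2098 and 3449 CPM (1.64-fold) and Tapbp at 189 and 303 CPM (1.60-fold). Tap2 was at 56.5 and 87.2 CPM (1.54-fold), H2-K1 at 1421 and 2156 CPM (1.52-fold) and B2m at 2702 and 3748 CPM (1.39-fold). Tap1 and Tap2 were both lower here, unlike in mature neutrophil-like cells, where Tap1 was within the fold. That difference between classes was not tested.

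The 4 clusters of this class were filled unequally. Cluster 2 held 854 KO and 789 WT cells, the macrophage cluster 9 (led by C1qa) 596 and 283, cluster 12 (led by Gpnmb and Mmp12) 429 and 154, and cluster 10, led by the interferon-induced genes Rsad2, Ifit2 and Irf7, 223 and 621. Median centred log2 ratios of the 10 genes were -0.53 in cluster 2, -0.67 in cluster 9 and -0.17 in cluster 10, and -0.45 over the 9 genes measured in cluster 12. Taking the median of within-cluster ratios gave -0.42 for the class. Without cluster 10, an alternative chosen after the data were seen, the median was -0.55. Then 9 genes were lower past the fold, and B2m was inside it at -0.28. The median depth was 10429.5 UMIs per KO cell and 8463 per WT cell. The summed level of 10 neutrophil transcripts was 15038 CPM of all UMIs in KO and 18623 in WT. Of the 10, 5 were higher in KO and none was at 0. Lyz2, which is among them, is also a leading gene of cluster 2. Of 7 measured, 3 were higher past the fold, against 20.4% of all genes, and 1 lower, against 19.3%. Lcn2 was at a centred log2 ratio of 2.36, S100a9 at 1.57, Wfdc21 at 1.22 and Ifitm6 at -0.85. The part of these transcripts and of depth in the result was not tested.

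**Figure D3:**
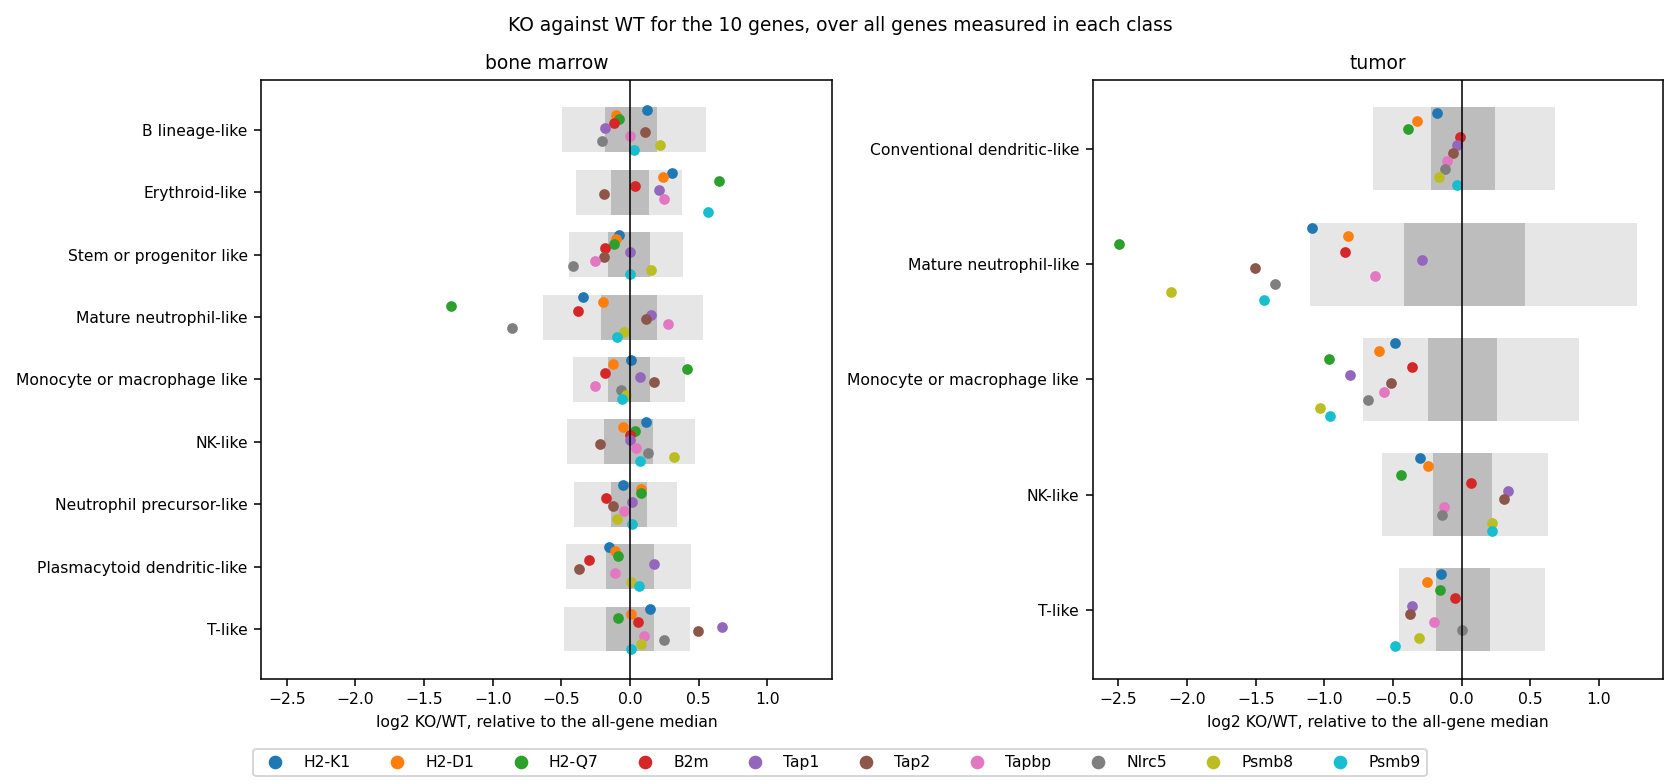
Centred log2 ratio of KO over WT for each of the 10 genes in each class of bone marrow and tumor. Grey bands are all measured genes of the class, light from percentile 5 to 95 and dark from 25 to 75. Values near 0 mean the same ratio as the median gene of the class. The tumor mature neutrophil-like and monocyte-like or macrophage-like classes have negative values in all 10 genes, with medians of -1.23 and -0.64, and the tumor conventional dendritic-like class has 10 smaller negative values with a median of -0.11.

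T-like, NK-like and conventional dendritic-like cells of the tumor had smaller ratios. In T-like cells 3 of the 10 genes were lower past the fold, against 12% of all measured genes lower and 15.2% higher, and the median was -0.23. They were Psmb9 (375 CPM in KO, 525 in WT, centred log2 ratio -0.49), Tap2 (155 and 202 CPM, -0.38) and Tap1 (235 and 302 CPM, -0.36). Psmb8 was at 1149 and 1427 CPM (-0.31), just inside the fold. The heavy chains H2-K1 and H2-Q7 were within the fold, at -0.15 and -0.16, and Nlrc5 was at 67.8 and 67.5 CPM. The class holds clusters 1, 5, 11, 18, 20, 21, 22 and 31, and cluster 20 (45 KO and 202 WT cells) is led by Klra1, Klra6, Cd160 and Klra7, which NK cells also express. Without cluster 20, an alternative chosen after the data were seen, 4 genes were lower past the fold, Psmb8 among them at -0.33. Of 9 measured MHC class II genes 7 were lower in KO past the fold and 1 higher, with summed levels of 864 CPM in KO and 1721 in WT. The 10 neutrophil transcripts, of which none was at 0, summed to 436 CPM of all UMIs in KO and 206 in WT, and 7 of the 10 were higher in KO. The part of these transcripts in the ratios was not tested. With cells thinned to 1 depth, which leaves fewer UMIs, 1 gene was lower past the fold.

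In conventional dendritic-like cells 2 of the 10 genes were lower past the fold, against 16.8% of all measured genes lower and 18% higher, and the median was -0.11, with all 10 below the all-gene median. They were H2-Q7 (472 and 642 CPM, -0.39) and H2-D1 (2572 and 3358 CPM, -0.33). B2m was at 3019 and 3164 CPM (-0.01). The peptide-processing genes were within the fold, with Psmb8 at 1443 and 1681 CPM (-0.16), Psmb9 at -0.03 and Tap1 at -0.03. The neutrophil transcripts summed to 1879 CPM of all UMIs in KO and 1287 in WT, with 8 of the 10 higher in KO and 2 at 0, and their part in the ratios was not tested. With cells thinned, 1 gene was lower past the fold.

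NK-like cells of the tumor were split. H2-Q7 was lower past the fold (1404 and 1975 CPM, -0.44) against 15.6% of genes lower, and Tap1 was higher past it (143 and 117 CPM, 0.34) against 17% of genes higher. The classical chains were at 4235 and 5400 CPM for H2-K1 (-0.30) and 3822 and 4689 CPM for H2-D1 (-0.25), while B2m was at 4750 and 4678 CPM (0.07). In these NK-like cells 8 of 9 measured MHC class II genes were higher in KO past the fold, with summed levels of 1479 CPM in KO and 676 in WT, and the neutrophil transcripts summed to 206 CPM of all UMIs in KO and 79.1 in WT. Their part in the ratios was not tested. With cells thinned, no gene was lower and 2 were higher.

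Across all tumor clusters with at least 50 cells in each library, named or not, H2-D1 was below the all-gene median in 22 of 22 clusters, H2-K1 in 21 of 22 and Psmb8 in 21 of 22. H2-Q7 was below it in 20 of 21 clusters where it was measured, B2m in 19 of 22 and Psmb9 in 18 of 21. Tap1, Tap2 and Tapbp were below it in 16 of 21 clusters each, and Nlrc5 in 9 of 15. The clusters share 1 KO and 1 WT library and are not replicates. The lowest H2-Q7 ratio, a centred log2 ratio of -2.65, was in cluster 4, and the highest Tap1 ratio, 2.06, was in cluster 6. Unnamed cluster 7 (963 KO and 285 WT cells, led by Chil3 and Mgst1) had H2-Q7 at -2.21 with H2-K1 at -0.54. The Cd8 T-like cluster 5 was near 0 for the heavy chains, with H2-K1 at 0.04 and H2-Q7 at 0.03, and had Psmb9 at -0.39.

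**Figure D4:**
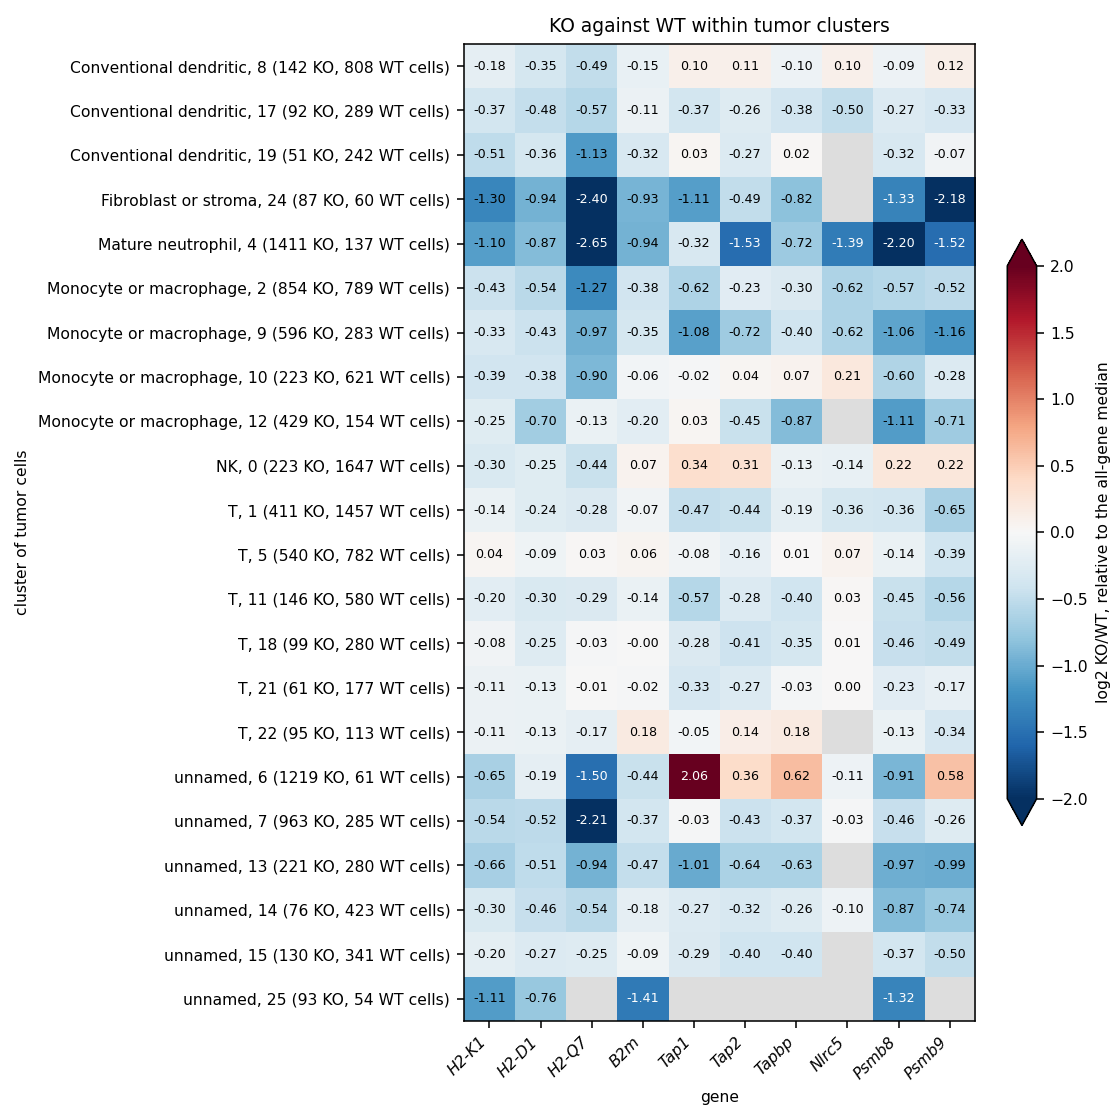
Centred log2 ratios of the 10 genes in the tumor clusters with at least 50 cells in each library, with blue for lower and red for higher in KO and grey for not measured. Most values lie below 0, with H2-D1 below it in 22 of 22 clusters, and Tap1 in cluster 6 stands at 2.06.

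In bone marrow the 10 genes did not share a direction. The median centred log2 ratio ran from -0.15 in mature neutrophil-like cells to 0.24 in erythroid-like cells, and was between -0.11 and 0.09 in the other 7 classes. Over bone marrow clusters H2-K1 was below the all-gene median in 14 of 26, H2-Q7 in 9 of 16 and B2m in 18 of 26.

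Mature neutrophil-like cells of the marrow had 4 of the 10 genes lower past the fold, against 16% of all measured genes lower and 14.2% higher. H2-Q7 was at 19.8 CPM in KO and 49.0 in WT, 2.47-fold lower (2.01 to 3.04), and 0.421% of genes had a lower ratio. Nlrc5 was at 8.97 and 16.2 CPM, 1.81-fold lower (1.27 to 2.55). B2m was at 1579 and 2055 CPM (1.302-fold) and H2-K1 at 670 and 848 CPM (1.27-fold). The centred log2 ratio of H2-K1 was inside the fold without cluster 4 (-0.27) and at its edge, just inside, without cluster 2 (-0.32), and 3 genes were then lower past the fold. Both alternatives were chosen after the data were seen. The transporter and proteasome genes were within the fold, with Tap1 at 121 and 109 CPM, Tap2 at 169 and 156 CPM, Tapbp at 281 and 232 CPM and Psmb8 at 115 and 119 CPM. Psmb9 was at 171 and 183 CPM and H2-D1 at 1560 and 1783 CPM (1.14-fold lower), both within the fold. With cells thinned, 2 genes were lower past the fold.

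The class held clusters 0, 1, 2, 4, 7 and 20, of which cluster 2 was mostly KO (1357 and 104 cells), cluster 4 mostly WT (275 and 731) and cluster 20, led by Ifit1, Ifit3 and Rsad2, held 153 and 57. In bone marrow T-like cells 2 of the 10 genes were higher in KO past the fold, against 11.5% of measured genes higher and 11.5% lower. Tap1 was at 263 CPM in KO and 146 in WT (1.80-fold higher, centred log2 ratio 0.67) and Tap2 at 273 and 172 CPM (1.59-fold, 0.49). These rest on 134 KO and 214 WT cells and a class whose all-gene median log2 ratio was 0.17.

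Other bone marrow classes had at most 2 of the genes past the fold. Erythroid-like cells had H2-Q7 (123 and 78.7 CPM, 0.65) and Psmb9 (98.1 and 66.4 CPM, 0.57) higher, 2 of 8 measured against 7.28% of genes higher and 8.56% lower, and their WT cells were the deeper ones (medians of 3543 and 11255 UMIs). Monocyte-like or macrophage-like cells had H2-Q7 higher (53.9 and 39.9 CPM, 0.42) against 8.53% of genes higher and 10.1% lower. Stem or progenitor-like cells had Nlrc5 lower (22.4 and 30.1 CPM, -0.42) against 10.6% of genes lower and 7.85% higher, and plasmacytoid dendritic-like cells had Tap2 lower (129 and 164 CPM, -0.37), 1 of 9 measured against 11.7% lower and 10.7% higher. These last 3 differences were each inside the fold with doublets kept. B lineage-like, NK-like and neutrophil precursor-like cells had none of the measured genes past the fold, against 12.4%, 12.9% and 8.35% of genes lower and 14.3%, 11.6% and 5.75% higher.

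The interferon-responsive genes were described beside the 10 because interferons are known to induce them. In tumor mature neutrophil-like cells 28 of 29 measured genes of a type I interferon list were lower in KO past the fold, with a median centred log2 ratio of -1.68, against 30.7% of all measured genes lower and 31.6% higher. Ifit3, an antiviral RNA-binding protein gene, was at 21.3 CPM in KO and 509 in WT, and Zbp1, a nucleic acid sensor, at 93.2 and 853 CPM. An interferon gamma list had 8 of 12 measured genes lower and 3 higher, with Ifi47 at 68.6 and 272 CPM and the chemokine gene Cxcl10 the other way, at 416 and 171 CPM.

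In tumor monocyte-like or macrophage-like cells 28 of 34 type I genes were lower and 3 higher (median -0.69), and 17 of 21 interferon gamma genes were lower and 1 higher (median -0.85), against 19.3% of all measured genes lower and 20.4% higher. Serpina3g, an interferon-induced serpin gene, was at 8.03 and 40.4 CPM. In tumor T-like cells 17 of 33 type I genes were lower and 2 higher (median -0.33), against 12% of all genes lower and 15.2% higher. Tumor NK-like cells had 13 of 21 type I genes lower and 1 higher (median -0.45), against 15.6% and 17% of all genes, beside a median of -0.03 for the 10 class I genes. In conventional dendritic-like cells 12 of 32 type I genes were lower and 6 higher (median 0.02), and 10 of 21 interferon gamma genes were higher and 4 lower (median 0.04), against 16.8% of all genes lower and 18% higher. In bone marrow the type I list had a median below 0 in all 9 classes, from only 3 measured genes in NK-like and 5 in T-like cells. Of its measured genes 24 of 30 were lower in monocyte-like or macrophage-like cells (median -0.59), against 10.1% of all genes, and 21 of 25 in neutrophil precursor-like cells (median -0.80), against 8.35%.

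Other genes of class I presentation are given for the same 2 tumor classes, with the shares of all genes as above (30.7% lower and 31.6% higher in mature neutrophil-like cells, 19.3% and 20.4% in monocyte-like or macrophage-like cells). In mature neutrophil-like cells 5 of 5 measured other heavy chain genes were lower, with the nonclassical H2-T22 at 27.9 CPM in KO and 156 in WT. Of 11 other peptide supply and loading genes 6 were lower and 2 higher, and Psmb10, the remaining immunoproteasome subunit gene, was at 19.2 and 111 CPM. Of 8 constitutive proteasome genes 6 were lower and none higher, at a median of -0.34. In monocyte-like or macrophage-like cells 7 of 9 other heavy chain genes were lower and 1 higher, and of 16 peptide supply and loading genes 5 were lower and 5 higher. Psmb10 was at 169 and 408 CPM there, and Npepps, a cytosolic aminopeptidase gene, was higher at 103 and 57.0 CPM.

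Among regulators of class I transcription, Irf1, an interferon-induced transcription factor gene, was at 109 CPM in KO and 209 in WT monocyte-like or macrophage-like cells of the tumor. Of the list, 2 of 10 measured genes were lower and 4 higher in mature neutrophil-like cells, and 7 of 17 were lower and 3 higher in monocyte-like or macrophage-like cells, against the same shares of all genes (30.7% and 31.6%, and 19.3% and 20.4%). MHC class II genes were lower in 10 of 11 measured in monocyte-like or macrophage-like cells, with their activator gene Ciita at a centred log2 ratio of -1.02. Ifng, which encodes interferon gamma, was at 125 CPM in KO and 262 in WT tumor NK-like cells and at 236 and 222 CPM in T-like cells.

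**Figure D5:**
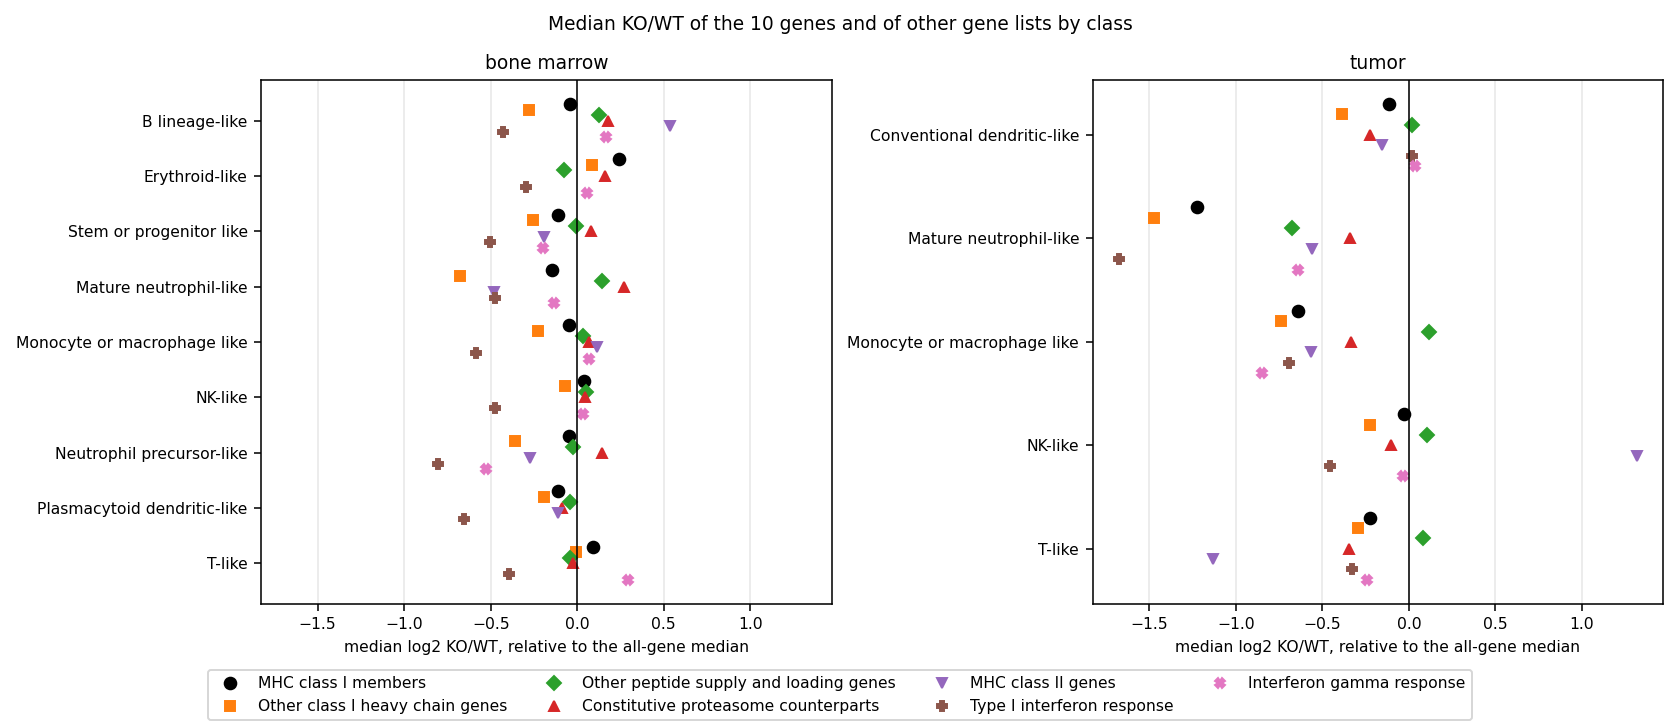
Median centred log2 ratio of each gene list (KO over WT) by class. The type I interferon list has its lowest median, -1.68, in tumor mature neutrophil-like cells, where the 10 genes have -1.23. Bone marrow classes show type I medians below 0 beside class I medians from -0.15 (mature neutrophil-like) to 0.24 (erythroid-like). Their type I medians rest on 3 measured genes in NK-like and 5 in T-like cells.

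Genes with a profile most like the mean of the 10 over class and library points were named by their correlation, as a description. In bone marrow 10287 genes were searched over 19 points of 10 classes, which share libraries. The highest were Gpr132 (Pearson r 0.983), H2-T22 (0.964), Trim14 (0.963), Icam1 (0.945), Adora2a (0.944) and Dtx3l (0.933). In the tumor 8323 genes were searched over 11 points of 6 classes. The highest there were Rassf5 (0.956), Isoc2b (0.941), H2-T22 (0.927), Sbds (0.927), Fis1 (0.903) and Ggps1 (0.898). H2-T22, a nonclassical class I heavy chain gene, was among the 6 in both tissues.

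The near-identical copies of the H2-Q genes limit what H2-Q7 UMIs mean. Of the 50-base windows in the last 600 bases of its transcripts, 21.1% are shared with other genes, among them H2-Q5, H2-Q6 and H2-Q10. Whether reads that fit several of these genes were counted or lost was not tested. The sum below leaves out H2-Q5 and H2-Q10. With H2-Q6 and H2-Q7 summed, an alternative chosen after the data were seen, the centred log2 ratio was -2.16 in tumor mature neutrophil-like cells, -1.03 in tumor monocyte-like or macrophage-like cells and -1.51 in bone marrow mature neutrophil-like cells. The shared windows were 8.09% for H2-K1, 7.98% for H2-D1, 4.41% for Tapbp and 2.28% for Tap1.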

How the data were processed

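Raw UMI counts, 1 value for each gene in each barcode, were used as deposited. Headers of the bone marrow matrices name Cell Ranger 3.1.0 and those of the tumor matrices 6.0.2, per the file headers. Other versions stand in the submitters' processing notes (Cell Ranger 6.1.2, Seurat 4.3.0, R 4.2.1; builds mm10 and GRCm38). Counts of features with the same symbol were summed, and the tissues were analysed apart. Barcodes under 200 genes or over 10% mitochondrial UMIs were dropped. Doublets were scored against simulated doublets, and the highest-scoring barcodes were removed at 0.8% per 1000 barcodes. Both libraries of a tissue were clustered together on 2000 variable genes, 30 components and 15 neighbors (Leiden, resolution 1, leidenalg 0.10.2, Python 3.11.15). A cluster could take the name of a class only with enough of its markers detected. The minimum was 3 and rose with the length of the marker list. The mean marker score also had to be at least 0.5. Clusters stayed unnamed where no class met both rules or where leading genes were mostly markers of another class that did not meet them. Shallow clusters with no marker of the class among the leading genes also stayed unnamed. UMI counts were summed per class and library. UMIs were treated as independent molecules, and intervals cover counting error only (exact Poisson for levels, exact conditional for ratios). The ratio script was checked on simulated counts. The 10 genes, the gene lists and the classes were chosen with earlier results of these data known. All 10 genes are named, and from each other list up to 4 measured genes with the largest centred log2 ratios in a class. The likeness rule took the 6 most correlated genes with at least 20 CPM in some class. Alternatives covered doublets, thinning, centring, UMI minimum, fold and clustering. A gene of the regulator list is not reported here.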

Additional observations from a re-analysis of the deposited data

Results flagged for a closer look

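For 3 results the KO to WT difference had opposite directions in the 2 tissues for the same class, and the difference between the tissues was not tested, since each group is 1 library. H2-Q7 in monocyte-like or macrophage-like cells had a centred log2 ratio of 0.42 in bone marrow and -0.96 in the tumor, a difference of -1.38. Tap1 in T-like cells had 0.67 in bone marrow and -0.36 in the tumor, a difference of -1.03. Tap2 in T-like cells had 0.49 and -0.38, a difference of -0.87. The file headers name different Cell Ranger versions for the tissues, which were clustered apart, and the part of either was not tested.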

How the results depend on the processing

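The alternatives gave 131 of 144 class medians and 259 of 316 counts near the reported value. No median past the fold changed sign, and sign changes of the smaller medians were not counted. Of 406 values for genes past the fold, 405 kept their sign and 375 their side. The exception was Nlrc5 in bone marrow stem or progenitor-like cells, at 0.00610 with doublets kept. All alternatives reuse the same libraries. Some, such as the UMI minimum and centring, leave the counts of a gene unchanged, so kept signs were partly fixed in advance.

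Medians that moved were as follows. In tumor mature neutrophil-like cells they were -0.87 with no UMI minimum, -0.86 with doublets kept and -0.81 with cluster 6. In tumor monocyte-like or macrophage-like cells they were -0.42 within clusters, -0.49 with doublets kept, -0.53 with cluster 3, -0.54 clustered without interferon genes and -0.76 without centring. In tumor T-like cells they were -0.29 with doublets kept and -0.15 within clusters, and in tumor conventional dendritic-like cells -0.23 within clusters. In bone marrow, mature neutrophil-like cells had -0.0463 with no minimum and erythroid-like cells 0.50 by the mean over cells.

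At a 1.5-fold limit, 6 genes were lower in tumor monocyte-like or macrophage-like and 2 in bone marrow mature neutrophil-like cells, 1 was higher in bone marrow erythroid-like and T-like cells each, and 0 elsewhere except tumor mature neutrophil-like cells. At 400 UMIs, 2 were lower in bone marrow mature neutrophil-like cells and 0 were past the fold in the other bone marrow classes. With cells thinned, 2 were lower in bone marrow mature neutrophil-like, 1 in tumor conventional dendritic-like and T-like cells each and 0 in tumor NK-like, bone marrow stem or progenitor-like and plasmacytoid dendritic-like cells. Thinning gave 2 higher in tumor NK-like cells, 1 in bone marrow erythroid-like, NK-like and plasmacytoid dendritic-like cells each and 0 in monocyte-like or macrophage-like cells. With doublets kept, 0 were higher in bone marrow monocyte-like or macrophage-like and tumor NK-like cells and 0 lower in bone marrow stem or progenitor-like and plasmacytoid dendritic-like cells. Another seed gave 2 lower in stem or progenitor-like and 1 in bone marrow monocyte-like or macrophage-like cells. Clustering without interferon genes gave 1 higher in bone marrow NK-like and 2 lower in plasmacytoid dendritic-like cells. The mean over cells gave 6 higher in erythroid-like, 1 in bone marrow mature neutrophil-like and NK-like cells each and 0 in tumor NK-like cells, and 2 lower in stem or progenitor-like, 0 in tumor conventional dendritic-like and NK-like cells. Within clusters, 2 were higher in bone marrow mature neutrophil-like and 0 in monocyte-like or macrophage-like cells, and 1 lower in B lineage-like and tumor T-like cells each. Without centring, 1 was higher in bone marrow NK-like and 0 in tumor NK-like cells, with 2 lower in the latter. With no minimum, 1 was higher in bone marrow mature neutrophil-like, NK-like and neutrophil precursor-like cells each and 0 in tumor NK-like cells, and 2 were lower in bone marrow mature neutrophil-like and tumor NK-like cells each. With cluster 6, 1 was higher in tumor mature neutrophil-like cells. The cause was not tested.

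Alternatives that add or leave out named clusters, sum H2-Q6 with H2-Q7 or change the seed were chosen after seeing the data. No ratio was taken with cells thinned for tumor mature neutrophil-like cells, where under 50 WT cells reached the depth, and within-cluster values need classes of several clusters. No paired analysis was possible because each group is 1 library. Low counts limit Nlrc5, which was not measured in 3 bone marrow classes.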

Other observations

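The fibroblast-like or stroma-like tumor cluster, with 87 KO and 60 WT cells and led by Col3a1, Krt8 and Rhox5, was too small for the class comparisons. KO and WT name only the library here. The deletion is in the hematopoietic system, of which stroma and LLC carcinoma cells are not part. H2-K1 was at 626 CPM in KO and 1519 in WT there, H2-Q7 at 17.8 and 93.04 CPM, Psmb9 at 23.02 and 103 CPM and B2m at 1151 and 2159 CPM. The median centred log2 ratio was -1.11 over the 9 genes measured. The median depth was 51282 UMIs per KO cell and 27842.5 per WT cell, and its part in these ratios was not tested. Krt8 is also a tumor epithelial marker, and the part of a mix of stroma-like and carcinoma cells was not tested.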
